A study of Mus musculus with 6 samples.

Results

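The genes described here encode enzymes that write or erase methyl groups on DNA and histones, or remove acyl groups from histones and other proteins. They were chosen by symbol: rows of the deposited count table beginning with Kdm1 to Kdm8, Kmt2, Setd, Hdac or Sirt with a number, or Dnmt, together with Ezh1, Ezh2 and Tet1 to Tet3. This gave 60 genes of 15106 in the table, of which 57 passed the filter on low counts. One of the 60, Dnmt3aos, is an antisense transcript at Dnmt3a and not an enzyme gene. RNA was sequenced from regulatory T cells (Tregs, 4 libraries) and effector T cells (Teffs, 2 libraries), both sorted by flow cytometry from the skin of mice aged 6 weeks. All mice carried a FOXP3-GFP reporter, which marks cells that make FOXP3, the transcription factor that defines Tregs. The labels give no sex, strain or pooling, and nothing in them ties each library to an animal of its own, so every p-value reflects variation among these 6 libraries, which may be partly technical.

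DNA methyltransferases add methyl groups to cytosine, mostly where it is followed by guanine (CpG). TET dioxygenases oxidise those methyl groups and so start their removal. On histone tails, methyl groups on H3K4 mark active genes, while methyl groups that the EZH subunits of Polycomb repressive complex PRC2 place on H3K27 mark silenced ones. Lysine demethylases reverse such marks, and histone deacetylases (HDACs) and sirtuins remove acetyl and related groups. In Tregs, loss of CpG methylation at an enhancer of Foxp3 is known to keep that gene stably on, FOXP3 is known to work with EZH2-bound and HDAC-containing complexes, and DNMT1 is known to be needed for Treg function. Enzyme transcripts are measured here, not the marks themselves.

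Each library held 4902126 to 7468778 counts in genes. Levels are given as CPM, the usual depth-scaled count, on library sizes adjusted by TMM, where 3 counts equal 0.397 to 0.581 CPM. Foxp3 was at 103 to 233 CPM in Treg libraries and at 11.3 and 7.17 CPM in Teff libraries, and Cd3e, a chain of the T cell receptor complex, was at 555 to 1225 and at 1290 and 1111 CPM. The Treg libraries differed from each other more than the Teff libraries did, with Spearman correlations over tested genes of 0.649 to 0.748 against 0.883. Treg 3 stood apart in markers of other skin cells. The 10 fibroblast markers summed to 3007 CPM there and to 4.57 to 10.5 CPM in the other Treg libraries, and the 10 keratinocyte markers to 888 CPM against 0.800 to 20.7 CPM. Teff 1 also held 419 CPM of the fibroblast markers, against 8.14 CPM in Teff 2. Markers of dendritic and Langerhans cells summed to 9773 CPM in Treg 4 and 600 to 3034 CPM in the other Tregs, against 1640 and 5291 CPM in Teffs. Most of the Treg 4 sum was Cd74, at 7131 CPM. Epcam, of the same list, was at 48.2, 33.8, 17.9 and 53.2 CPM across Tregs 1 to 4, against 1.46 and 0.388 CPM in Teffs. It was the only 1 of the 7 tested markers of that list whose groups did not overlap. Between the groups, CD8 T cell markers summed to 0.180 to 65.6 CPM in Tregs and 142 and 93.6 CPM in Teffs, and gamma-delta T cell markers to 0 in every Treg library and 21.2 and 21.7 CPM in Teffs. The part of these cells in the results was not tested.

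Stretches of sequence just before RefSeq starts of 3 members are shown. Hdac7 and Ezh1 are among the members whose levels lay on one side in all Treg libraries, and Ezh2 is the paralog set against Ezh1. Kdm2a, Kdm7a and Kdm4c also lay on one side and are not shown. The stretches come from RefSeq (GRCm38.p6, the same primary assembly as mm10) and read 5′ to 3′ on the gene's own minus strand. CpG dinucleotides, the substrate of the DNA methyltransferases, are in capitals. For Hdac7, which has 4 RefSeq starts, the window before the outermost start is shown, and for Ezh2 the exon-free stretch of the window. The Ezh2 stretch lies inside the longer Ezh2 gene of GENCODE M21, whose spans are given for the genes below, between exons of that annotation. The stretches lie at chr15:97844503-97844752, chr11:101226464-101226713 and chr6:47595059-47595183.
Hdac7: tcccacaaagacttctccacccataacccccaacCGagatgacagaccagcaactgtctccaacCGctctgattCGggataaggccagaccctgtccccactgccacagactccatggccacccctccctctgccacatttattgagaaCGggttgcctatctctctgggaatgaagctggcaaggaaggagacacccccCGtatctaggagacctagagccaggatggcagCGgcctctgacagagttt
Ezh1: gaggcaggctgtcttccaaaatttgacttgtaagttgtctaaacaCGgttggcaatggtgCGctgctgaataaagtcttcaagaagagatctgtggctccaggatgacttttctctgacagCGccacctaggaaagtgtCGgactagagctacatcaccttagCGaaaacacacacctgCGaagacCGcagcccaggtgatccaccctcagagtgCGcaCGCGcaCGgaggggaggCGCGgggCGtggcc
Ezh2: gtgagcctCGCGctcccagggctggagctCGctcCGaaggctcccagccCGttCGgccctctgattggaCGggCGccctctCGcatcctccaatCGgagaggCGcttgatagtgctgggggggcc
The full 250-base windows held 6 CpG for Hdac7, 14 for Ezh1 and 23 for Ezh2. The windows before the other 3 Hdac7 starts held 25, 21 and 5 CpG. Among all 32851 RefSeq windows, 50.4% held at least the 6 CpG of the shown Hdac7 window, 29.4% the 14 of Ezh1 and 13.3% the 23 of Ezh2. The median of all windows was 6. Over the 69 windows of the 49 members with an entry the median was 17. The E2F letters TTTCGCGC and TTTGGCGC (reverse strand GCGCGAAA and GCGCCAAA) were searched on both strands and lay in 0.654% of all windows. Among the members' windows they lay in 1, before a start of Dnmt1. The deposited counts do not show which start a transcript used.

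None of the 57 tested genes passed the test between Tregs and Teffs once p was adjusted over all genes, which does not show that their levels were equal. In edgeR's quasi-likelihood test 0 were called at an adjusted p under 0.05, beside 5 of 11775 genes in all (0.0425%; 0.034% higher and 0.00849% lower in Tregs). Hdac7, a class IIa histone deacetylase known for its role in developing T cells, was the closest, with an adjusted p of 0.731, and the edgeR adjusted p of each of the other 56 rounded to 1. At an unadjusted p under 0.05 there was 1 member, Hdac7, beside 4.73% of all genes. DESeq2 called 0 of the 55 members it gave an adjusted p (2.08% of all genes), with Hdac7 and Ezh1 under 0.05 before adjustment. Foxp3, the gene behind the sort, was not called by edgeR either (log2 fold change 4.19, edgeR adjusted p = 0.131), while DESeq2 called it (DESeq2 adjusted p = 1.3e-12). A false discovery rate under 0.05 was listed for 0 of 60 in the authors' deposited table (0.285% of all genes), and each stood at 1 there. In sorted bulk RNA, fewer cells of one kind and less RNA per cell cannot be told apart, which holds for every value that follows.

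Most of the estimated differences were small. The median log2 fold change, coded Treg minus Teff, was 0.14 over the 57 members and 0.07 over all tested genes. It was under 1 in size for 53 of the 57 members (93.0%) and for 68.1% of all genes. The members were at higher levels than genes in general. At a mean of 50 CPM or more the shares were 94.4% of 36 members and 85.2% of all genes. Under 50 CPM they were 90.5% of 21 members and 57.3% of all genes. The sign was positive for 40 members and negative for 17, and this split depended on the scaling, with 30 against 27 under upper-quartile scaling, which moved the median of all genes from 0.07 to -0.04. The standard error had a median of 0.61 on the log2 scale. The 95% interval stayed within a 4-fold change either way for 29 members and within a 2-fold change for 4, namely Kdm5a, Kmt2c, Kmt2d and Kmt2e, so that for the other 28 a 4-fold difference was within the interval.

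**Figure D1:**
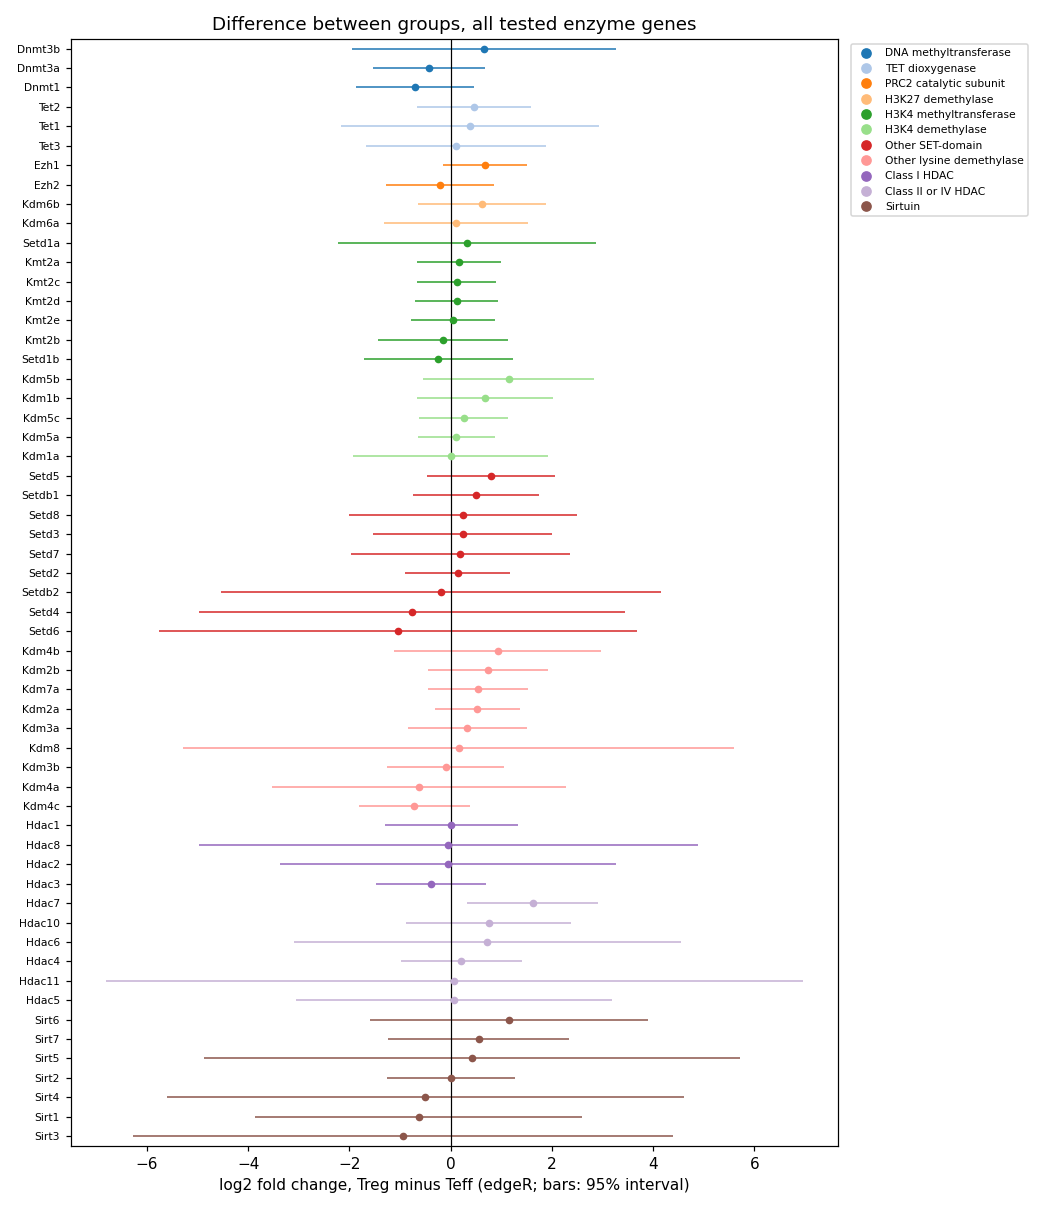
Log2 fold change (Treg minus Teff, x axis) of each of the 57 tested genes, coloured by role; points are edgeR estimates and bars 95% intervals. The interval of Hdac7 alone lies to one side of 0 (0.32 to 2.92), and the widest intervals, such as that of Hdac11 (-6.82 to 6.97), belong to genes with counts at or near 0 in some libraries.

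In 5 of the 57 genes the groups did not overlap, where 15% of all tested genes had that pattern. Every Treg value exceeded both Teff values for 4 members (5.51% of all genes): Hdac7, Ezh1, Kdm2a and Kdm7a. All lay below for 1, Kdm4c (9.49% of all genes). Over both directions together the members' share was 8.77%, no higher than that of all genes. For Tregs above alone, 4 of 57 is a slightly higher share than 5.51%, and for Tregs below alone, 1 of 57 is a lower share than 9.49%.

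Hdac7 was the only deacetylase gene whose groups did not overlap. HDAC7 shuttles between nucleus and cytoplasm, acts mainly as a corepressor scaffold, and has been found in complexes with FOXP3. The gene lies on chromosome 15, from 97792664 to 97844502 (GRCm38), on the minus strand. It was at 289, 570, 162 and 301 CPM across Tregs 1 to 4, against 82.2 and 133 CPM in the Teffs. The lowest Treg library, Treg 3, thus lay just above Teff 2, and Treg 2 was the highest. The group means were 330 ± 172 CPM (SD, n = 4) and 107 ± 35.7 CPM (SD, n = 2), a log2 fold change of 1.62 ± 0.56 (SE), with edgeR adjusted p = 0.731. The estimate was 1.84 without Treg 3 and 1.22 to 1.99 over all single libraries left out. Without Teff 1 its unadjusted p in edgeR was 0.132, and without any other single library it was 0.00751 to 0.0443.

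None of the other class II and IV deacetylases separated the groups. Without Hdac7 their summed level was 249, 323, 260 and 91.6 CPM across Tregs 1 to 4, against 183 and 156 CPM in Teffs, and the groups overlapped. All 6 genes had a positive estimate, but Hdac5 and Hdac11 turned negative under upper-quartile scaling. Hdac10, a cytoplasmic polyamine deacetylase, was at 85.7, 122, 110 and 26.8 CPM in Tregs and 55.3 and 46.9 CPM in Teffs. Treg 4 lay below both Teff libraries and the other 3 above. Hdac6, which deacetylates tubulin, had 323, 320 and 125 counts in Treg 1 to Treg 3 and 1 in Treg 4, while Teffs had 164 and 93. Hdac11 had 243 counts in Treg 2 and 0 in the other Tregs, against 81 and 40 in Teffs. Hdac4, another class IIa member, was at 54.2 to 120 CPM in Tregs and 82.6 and 70.7 CPM in Teffs, and Hdac5 was low in every library (8.41 to 21.1 CPM).

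The class I deacetylases differed little in their group means apart from Hdac3. Of these, HDAC1, HDAC2 and HDAC3 are catalytic cores of nuclear corepressor complexes. Hdac1 was at 39.5, 82.2, 73.3 and 76.9 CPM in Tregs and 67.6 and 66.9 CPM in Teffs, so that Treg 1 was low and the others slightly above the Teffs. Its log2 fold change was 0.02 ± 0.57 (95% interval -1.30 to 1.33), and its sign was negative under upper-quartile scaling. Hdac3, the deacetylase of the NCoR and SMRT complexes, was at 91.6, 79.0, 82.0 and 57.4 CPM in Tregs and 113 and 89.7 CPM in Teffs (log2 fold change -0.39 ± 0.47). Hdac2, the close paralog of Hdac1, was far from even among Tregs, with 4 counts in Treg 1 and 354 in Treg 4. Hdac8 ranged from 0 counts in Treg 1 to 421 in Treg 4, while both Teff libraries stood at 17.9 and 18.4 CPM. Group means of Hdac2 and Hdac8 were within 1 CPM of each other, and their 95% intervals reached from -3.37 to 3.27 and from -4.98 to 4.89.

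Ezh1 was the most even of the 5 genes whose groups did not overlap. EZH1 and EZH2 are alternative catalytic subunits of PRC2. EZH2 is typical of dividing cells and EZH1 of resting ones. Ezh1 lies on chromosome 11, from 101191115 to 101226463, and Ezh2 on chromosome 6, from 47530139 to 47595341. Ezh1 was at 208, 187, 172 and 204 CPM across Tregs 1 to 4, against 127 and 115 CPM in the Teffs. Every Treg library was above both Teffs, and the 4 Treg values lay within 1.21 times of each other. The log2 fold change was 0.67 ± 0.36 (SE, edgeR unadjusted p = 0.0982; 0.0219 in DESeq2, where the adjusted p was 0.385), and it stayed at 0.58 to 0.73 when each library was left out. Ezh2 was at 75.2, 103, 70.3 and 125 CPM in Tregs and 118 and 98.3 CPM in Teffs, and the groups overlapped (log2 fold change -0.21 ± 0.47). Per kilobase of exon, Ezh1 stood at 2.49, 1.62, 2.20 and 1.46 times the level of Ezh2 in the Tregs and at 0.964 and 1.05 times in the Teffs. The ratio was higher in every Treg library, a description chosen after its values were seen, with no test. Groups were separate in the same way for 7.33% of the 1596 within-library ratios between 2 members.

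Genes of dividing cells had lower sums in the same Treg libraries, and their part in the values of Ezh2 and Dnmt1 was not tested. Of 22 such genes tested, edgeR called 0 and 1 had an unadjusted p under 0.05, Top2a, which DESeq2 also called (adjusted p = 5.9e-05, edgeR adjusted p = 0.227). Of the 22, 21 had a negative estimate, and the median log2 fold change was -1.34. Their summed level was 820 to 1837 CPM in Tregs and 2826 and 4013 CPM in Teffs. Top2a, the topoisomerase of dividing cells, was at 135, 181, 149 and 235 CPM in Tregs against 660 and 597 CPM in Teffs (log2 fold change -1.84, 95% interval -2.62 to -1.06). All Tregs lay below both Teffs. Mki67, which encodes Ki-67, stood at 23.8, 162, 322 and 312 CPM in Tregs against 506 and 580 CPM in Teffs.

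Of the demethylases of H3K27, which oppose PRC2, Kdm6a and Kdm6b are described here, and Kdm7a with the other lysine demethylases below. KDM6A (UTX) is encoded on the X chromosome and KDM6B (JMJD3) is inducible in immune cells. Kdm6a was at 269, 94.6, 62.1 and 161 CPM in Tregs and 161 and 112 CPM in Teffs, with Teffs in the middle of the Treg range. Kdm6b was at 267, 126, 238 and 84.6 CPM in Tregs and 123 and 110 CPM in Teffs, with Treg 4 below both. Their log2 fold changes were 0.10 ± 0.61, negative under upper-quartile scaling, and 0.62 ± 0.55.

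Among DNA methyltransferases, transcripts of the maintenance enzyme and of one de novo enzyme had lower means in Tregs, without passing the test. Dnmt1 copies CpG methylation after replication and lies on chromosome 9, from 20907209 to 20959888. It was at 185, 312, 84.3 and 169 CPM across Tregs 1 to 4, against 358 and 255 CPM in the Teffs. Treg 2 fell between the Teff libraries, the other 3 below both, and Treg 3 was the lowest. The log2 fold change was -0.71 ± 0.51 (95% interval -1.88 to 0.46). It was -0.46 without Treg 3 and likewise without Teff 1, -1.07 without Treg 2 (edgeR unadjusted p = 0.0496) and -0.33 with the replicate block. Dnmt3a, a de novo methyltransferase, was at 147, 112, 127 and 56.2 CPM in Tregs and 135 and 163 CPM in Teffs. Dnmt3b, the other de novo enzyme, was at 13.3, 33.1, 38.6 and 16.1 CPM in Tregs and 15.2 and 16.7 CPM in Teffs, with a log2 fold change of 0.66 that was 0.39 without Treg 3. The remaining genes of this family did not pass the filter: Dnmt3l, a germline cofactor without catalytic activity, had 24 counts in Treg 3 and 0 elsewhere, and Dnmt3aos had 1 count in Treg 1 and 8 in Teff 1.

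TET genes were all found in every library. Tet2, which is often mutated in blood cancers, was at 402, 133, 254 and 386 CPM in Tregs and 209 and 218 CPM in Teffs, with 3 Treg libraries above and Treg 2 below. Tet3 was at 29.4, 311, 147 and 140 CPM in Tregs and 163 and 128 CPM in Teffs, so that the extremes were both Treg libraries. Tet1 was at 14.6, 19.8, 137 and 28.1 CPM in Tregs and 55.1 and 21.3 CPM in Teffs. The high Treg library was Treg 3, the one with the most fibroblast and keratinocyte markers, and Teff 1, the higher Teff library for Tet1, was also the higher for both marker sums. The part of those cells in the Tet1 values was not tested. Log2 fold changes were 0.46 ± 0.49 (Tet2), 0.10 ± 0.77 (Tet3) and 0.38 ± 1.11 (Tet1), that of Tet3 was negative under upper-quartile scaling, and that of Tet1 was -0.86 without Treg 3. Summed over the family, Treg libraries stood at 446 to 554 CPM and Teffs at 367 and 428 CPM.

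**Figure D2:**
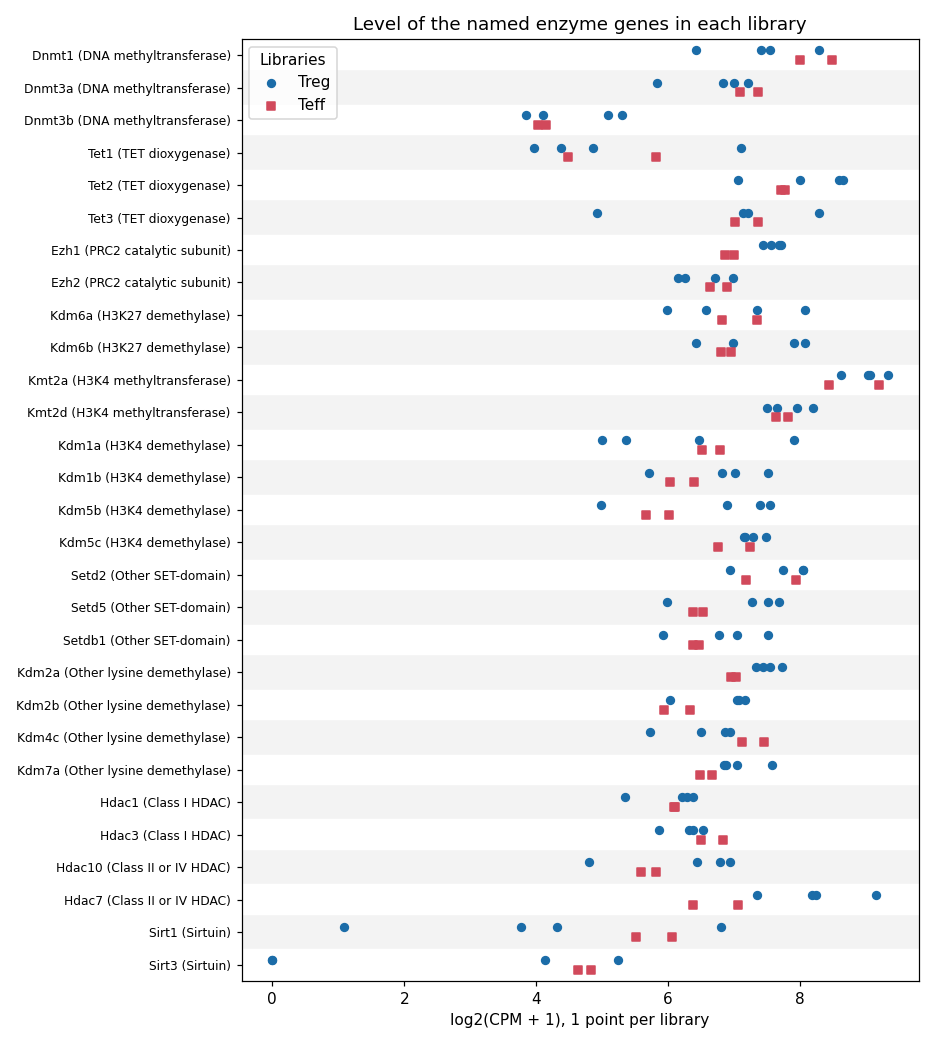
Level of 29 enzyme genes as log2(CPM + 1) (x axis), 1 point per library, circles for the 4 Treg and squares for the 2 Teff libraries, with the role of each gene beside its name. Circles and squares separate for Ezh1, Kdm2a, Kdm4c, Kdm7a and Hdac7, whereas circles of Sirt1, Sirt3, Tet1 and Tet3 spread on both sides of the squares.

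Most genes grouped by symbol as H3K4 methyltransferases (Kmt2 genes, Setd1a and Setd1b) varied little among Tregs. KMT2A to KMT2D and SETD1A and SETD1B are catalytic subunits of COMPASS-type complexes, while KMT2E is thought to lack methyltransferase activity. Kmt2a was at 531, 523, 391 and 642 CPM in Tregs and 346 and 584 CPM in Teffs, where Teff 1 lay below all Tregs and Teff 2 inside their range. Kmt2d was at 247, 291, 201 and 179 CPM in Tregs and 199 and 225 CPM in Teffs. Kmt2e was at 772, 1078, 569 and 593 CPM in Tregs and 689 and 777 CPM in Teffs, and both Teffs lay inside the Treg range. The 7 estimates ran from -0.24 to 0.32, with 5 positive (2 under upper-quartile scaling), and the median ratio of the highest to the lowest Treg library was 1.64. Setd1a varied most among Tregs, with 20 counts in Treg 3 against 245 to 424 in the other Tregs. Exons of other genes share 52.3% of the annotated exonic bases of Setd1a. Kmt2b was next, at 46.5 to 118 CPM in Tregs and 72.8 and 124 CPM in Teffs.

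H3K4 demethylases had somewhat higher sums in Tregs. Together they came to 835, 882, 775 and 869 CPM across Tregs 1 to 4, against 706 and 646 CPM in the Teffs, with no overlap. Kdm5b, which removes methyl groups from trimethylated H3K4, gave the largest estimate, at 186, 30.6, 168 and 117 CPM in Tregs and 49.9 and 63.6 CPM in Teffs. Treg 2 lay below both Teffs and the others above (log2 fold change 1.14 ± 0.73). The estimate was 1.47 without Treg 2 (edgeR unadjusted p = 0.0128) and 0.43 with the replicate block. Kdm1b, a demethylase of mono- and dimethylated H3K4, was at 112, 182, 128 and 51.1 CPM in Tregs and 83.3 and 64.5 CPM in Teffs. Kdm5a was at 288 to 436 CPM in Tregs and 332 and 302 CPM in Teffs, and the X-linked Kdm5c at 141 to 177 CPM in Tregs and 151 and 107 CPM in Teffs, both even. Kdm1a (LSD1), the demethylase of the CoREST complex, had equal means of 99.6 and 99.5 CPM, though Tregs stood at 30.8, 240, 40.0 and 87.9 CPM, and its sign changed with upper-quartile scaling.

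Of 11 role groups, the summed level lay above both Teffs in every Treg library for 3 (TET genes, H3K4 demethylases, class II and IV deacetylases) and below both for 0. Sums of the class II and IV group were 392 to 892 CPM against 265 and 289 CPM, and the overlap of its members without Hdac7 is given above. These sums give the most weight to the most abundant genes, and they were not tested. No share for sums of other genes was taken to set beside these counts, and the sums were not recomputed under other scalings. The lowest Treg sum of TET genes, 446 CPM, lay close to the higher Teff sum of 428 CPM.

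The other lysine demethylases held 3 of the 5 genes without overlap, in both directions. Kdm2a, a demethylase of H3K36 that binds unmethylated CpG DNA, lies on chromosome 19, from 4314419 to 4398285. It was at 161, 210, 186 and 172 CPM in Tregs and 129 and 123 CPM in Teffs, all Tregs above (log2 fold change 0.53 ± 0.36, edgeR unadjusted p = 0.184). Its paralog Kdm2b, which also brings a Polycomb complex to CpG islands, was at 133, 130, 64.2 and 142 CPM in Tregs and 79.6 and 60.5 CPM in Teffs, with only Treg 3 inside the Teff range (log2 fold change 0.75, and 0.95 without Treg 3). Kdm7a, a demethylase of H3K9 and H3K27, lies on chromosome 6, from 39136623 to 39206789. It was at 131, 189, 116 and 114 CPM in Tregs and 88.0 and 101 CPM in Teffs, again all Tregs above (log2 fold change 0.54 ± 0.43, and 0.35 without Treg 2). Kdm4c, a demethylase of H3K9 and H3K36, lies on chromosome 4, from 74242497 to 74405860, and was the member with all Tregs below. It was at 122, 51.8, 89.2 and 115 CPM in Tregs and 174 and 138 CPM in Teffs (log2 fold change -0.72 ± 0.47, edgeR unadjusted p = 0.168). Kdm4d did not pass the filter, with 4 counts in Treg 1, 15 in Treg 3 and 0 elsewhere.

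The remaining SET-domain genes did not separate the groups. Setd2, the enzyme that makes trimethylated H3K36, was at 262, 262, 122 and 212 CPM in Tregs and 144 and 245 CPM in Teffs. Setdb1, an H3K9 methyltransferase that silences retroelements, was at 182, 130, 59.4 and 109 CPM in Tregs and 81.8 and 87.6 CPM in Teffs, with Treg 3 lowest in both genes. The estimate for Setdb1 was 0.50, and 0.73 without Treg 3 or 0.23 without Treg 1. Setd5 was at 62.2, 203, 154 and 182 CPM in Tregs and 82.3 and 90.9 CPM in Teffs, where Treg 1 alone lay below (log2 fold change 0.80 ± 0.55, and 0.38 with the replicate block). Setdb2 had the widest range of all members among Tregs, with 841, 1, 6 and 219 counts across Tregs 1 to 4, against 429 and 247 in Teffs. Setd8, the H4K20 monomethyltransferase now named Kmt5a, was at 14.8 to 68.7 CPM in Tregs and 25.9 and 34.1 CPM in Teffs.

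Sirtuins, the NAD-dependent deacylases, were uneven among Tregs, with a median ratio of the highest to the lowest library of 31.7, beside 36.0 for the class I deacetylases. SIRT1, SIRT6 and SIRT7 are nuclear, SIRT2 is mainly cytoplasmic, and SIRT3, SIRT4 and SIRT5 are mitochondrial. Sirt1 was at 18.9, 1.12, 110 and 12.7 CPM in Tregs and 44.6 and 65.9 CPM in Teffs. Treg 3 was above both Teffs and the other 3 below both, with a log2 fold change of -0.63 ± 1.40 that became -2.33 without Treg 3 (edgeR unadjusted p = 0.127 there). Sirt3 had 0 counts in Treg 1 and Treg 2, which allows up to 0.541 and 0.480 CPM, and stood at 36.8 and 16.6 CPM in Treg 3 and Treg 4 and at 23.7 and 27.3 CPM in Teffs. Its log2 fold change of -0.93 ± 2.31 became -2.20 without Treg 3, and exons of other genes overlap 12.7% of its annotated exonic bases. Sirt2, the highest sirtuin per kilobase of exon, was at 255, 100, 96.1 and 90.2 CPM in Tregs and 152 and 117 CPM in Teffs, with equal means of 135 CPM. For 4 of the 7 sirtuins the highest Treg library exceeded the lowest by more than 10-fold. These 4, Sirt1, Sirt3, Sirt4 and Sirt5, had means under 50 CPM, where 66.0% of all genes had such a ratio. Sirt2 and Sirt7 had means above 50 CPM and ratios of 2.83 and 6.64.

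Treg libraries differed more for genes of low level. Counts under 3 were set to 3, and the highest Treg library was then divided by the lowest. This ratio had a median of 3.16 over the 57 members and 7.78 over all tested genes. It exceeded 10 for 15 members (26.3%) and for 46.3% of all genes. Among the 36 members at a mean of 50 CPM or more it did so for 1, Tet3, beside 14.9% of all genes at that level. Among the 21 members under 50 CPM it did so for 14 (66.7%), beside 66.0% of all such genes. A library with 10 counts or fewer was found for 13 tested members, all of them under 50 CPM. Such members numbered 6, 7, 4 and 4 across Tregs 1 to 4 and 1 in each Teff library, beside 30.1%, 27.8%, 11.5% and 16.8% of all tested genes in the Treg libraries and 5.93% and 12.7% in the Teffs.

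**Figure D3:**
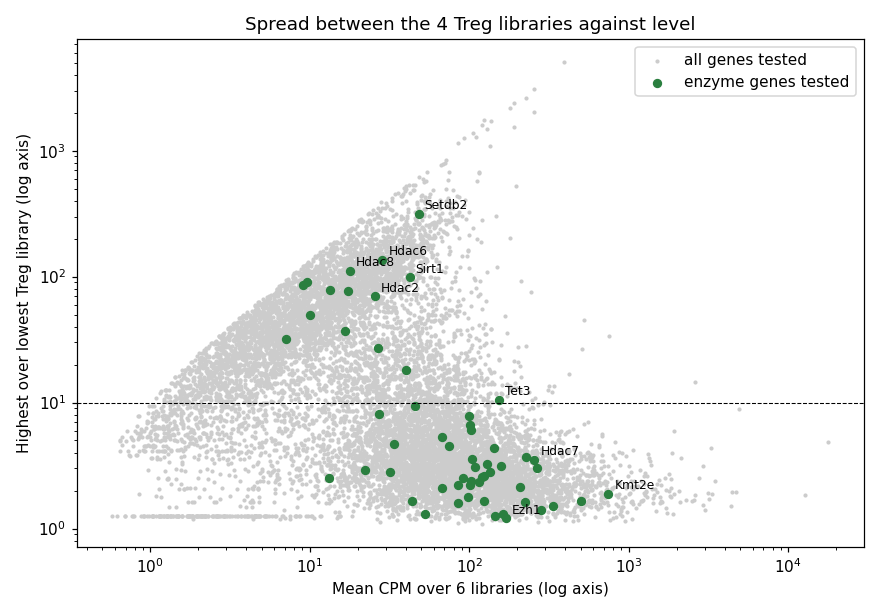
Ratio of the highest to the lowest Treg library (y axis, log scale, counts under 3 set to 3) against mean CPM over 6 libraries (x axis, log scale); grey points are all 11775 tested genes, green points the 57 enzyme genes and the dashed line a ratio of 10. Enzyme genes at 50 CPM or more lie below the line except Tet3 at 10.6, and Setdb2 is the highest at 316.

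Levels of different genes were compared per kilobase of annotated exon (GENCODE M21), since long transcripts give more counts. On that scale Kmt2e led with a mean of 71.5 CPM per kilobase over 6 libraries, followed by Hdac7 (37.9), Dnmt1 (30.8), Kmt2a (30.2), Sirt2 (26.9), Kdm5a (23.6), Kdm6b (22.8) and Ezh1 (22.7). Hdac5 (1.50), Sirt5 (1.64) and Hdac11 (2.48) were the lowest of the 57. Within families the order was Tet2 (15.8), Tet3 (9.18) and Tet1 (2.97), Dnmt1, Dnmt3a (7.42) and Dnmt3b (4.34), and Hdac3 (21.1), Hdac1 (19.7), Hdac2 (5.71) and Hdac8 (3.67). For all 56 neighbouring pairs in the order of the means, the ranges over libraries overlapped, so single steps in the order are not resolved. The means run over 4 Treg and 2 Teff libraries and so lean towards Treg levels. Hdac7 ran from 12.2 CPM per kilobase in Teff 1 to 84.4 in Treg 2. The order in Teffs alone is not given here. No source used here names the annotation behind the deposited counts, and exon lengths may differ from those behind the counts.

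**Figure D4:**
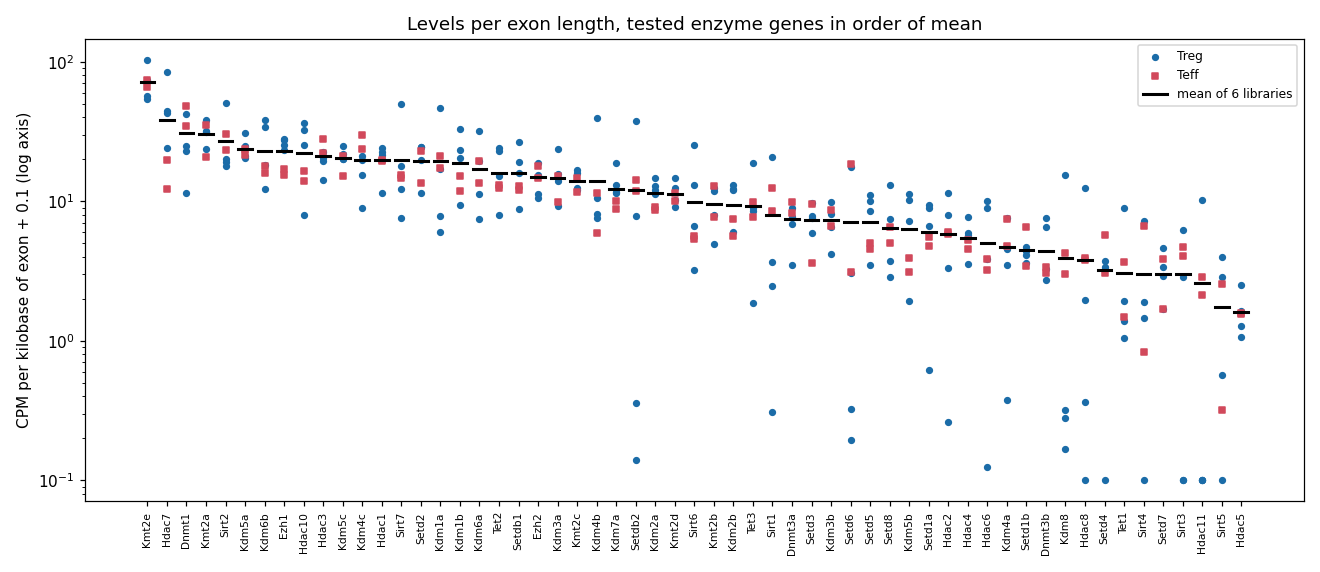
CPM per kilobase of exon plus 0.1 (y axis, log scale) for the 57 tested genes in order of their mean (x axis), 1 point per library and a bar for the mean of 6 libraries. Means fall from 71.5 for Kmt2e to 1.50 for Hdac5, and points at the bottom are libraries without counts, such as Treg 1 and Treg 2 for Sirt3.

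Genes that work with these enzymes showed the same lack of calls. Over lists of PRC2 and PRC1 subunits (24 tested), COMPASS subunits (12), HDAC corepressor subunits (23), other methyltransferases (24), other jumonji genes (9), histone acetyltransferases (16) and partners and readers of DNA methylation (18), 0 were called in either direction by edgeR or by DESeq2. At an edgeR unadjusted p under 0.05 there were 3, 0, 0, 1, 0, 1 and 0, in that order. The first is 12.5% of its list, the others that are not 0 are 4.17% and 6.25%, and the share over all genes was 4.73%. Median log2 fold changes were 0.27, -0.13, -0.41, -0.23, 0.09, 0.02 and 0.28, beside 0.07 over all genes. The 5 genes under 0.05 before adjustment were Cbx2, Cbx7, Phc1, Prdm1 and Ncoa3. Cbx7, a PRC1 subunit that reads H3K27 methylation, was at 94.9, 174, 154 and 244 CPM in Tregs and 45.4 and 89.2 CPM in Teffs, with all Tregs above. Ncoa3, a nuclear receptor coactivator, was at 685, 310, 331 and 234 CPM against 146 and 159 CPM. Prdm1, the transcriptional repressor BLIMP-1, was at 515, 164, 243 and 123 CPM against 102 and 62.4 CPM, and Phc1, another PRC1 subunit, at 132, 21.6, 24.7 and 28.8 CPM against 4.37 and 7.36 CPM. Cbx2, a PRC1 chromobox gene, lay on the other side, with no more than 0.175 CPM in any Treg library and 3.71 and 5.62 CPM in Teffs. These 5 genes are named because of their p, after their values were seen, and none of them is a call.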

How the data were processed

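RNA from 4 Treg and 2 Teff libraries was column-purified and converted to cDNA by SMARTer chemistry, as the labels' protocols state. Tools in the submitters' processing notes are HTSeq 0.6.1, TopHat2 2.0.12, SAMtools 0.1.19.0, CASAVA 1.8.2 and Bowtie2 2.1.0.0, with build mm10. The authors deposited whole-number counts per gene, and their own comparison as log2 fold changes and mean log2 CPM, with a p-value and an FDR, per the file headers. The 3 rows that name no gene (88.0% to 90.2% of column totals) entered neither library sizes nor tests. Genes passing filterByExpr (smallest count 10) were tested with edgeR 4.0.16 (R 4.3.3, limma 3.58.1), TMM scaling and the quasi-likelihood F test on group alone, adjusted by Benjamini-Hochberg over 11775 genes. A gene was called at an adjusted p under 0.05. The SE was taken as the size of the log2 fold change over root F. An exact permutation test of 4 libraries against 2 cannot go below 0.0667. The script was tested on simulated data. Alternatives were DESeq2 1.42.0, other scalings and filters, single libraries left out, and the replicate block. Members and lists were chosen with earlier results of these data known. Named genes were the 12 members with the smallest p and 21 fixed members (29 in all), and other members were given as their roles required. Hdac9 is not analysed here. Setd8 was matched to RefSeq through its synonym. Floors cover counting error only.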

Additional observations from a re-analysis of the deposited data

Results flagged for a closer look

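For 3 of 29 named genes, one of the 4 Treg libraries stood far from the other 3 by Dixon's ratio, in each case Treg 3. Chance flags about 1 in 20 such groups where values have a normal spread, which was not shown for these CPM values. Kdm2b was low in Treg 3, at 64.2 CPM against 130 to 142 CPM in the other Treg libraries. Tet1 was high there, at 137 CPM against 14.6 to 28.1 CPM. Sirt1 was also high there, at 110 CPM against 1.12 to 18.9 CPM. Treg 3 is the library with the highest sums of fibroblast (3007 CPM) and keratinocyte (888 CPM) markers, whose part in these 3 values was not tested.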

How the results depend on the processing

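No alternative called any of the members: the count was 0 with DESeq2, with other scalings and filters, without each library and with the replicate block. Over all genes the number of calls moved from 5 to 218 with DESeq2, 19 with no filter and 15 with the replicate block, and to 0 to 2 when each library was left out. The members' median log2 fold change was 0.14 to 0.25 with a library left out and 0.01 to 0.17 under the other settings. Members whose groups did not overlap numbered 10 to 14 with a library left out, where 22.1% to 27.2% of all tested genes had that pattern, and 5 or 6 under other scalings and filters. The replicate numbers shared by the groups were not shown to pair libraries, since deviations of same-numbered libraries correlated at -0.012 and 0.169 over 2 pairs. The replicate block takes Treg 3 and Treg 4 out of the contrast, and it moved the median of all genes from 0.07 to -0.64. With this block Sirt1 came to -3.48 and Sirt3, with 0 counts in Treg 1 and Treg 2, to -10.3. Signs turned with the block for Tet1 (-1.01), Tet3 (-0.59), Kdm1a (-0.20) and Hdac1 (-0.24). Under upper-quartile scaling they turned for Tet3 (-0.011), Kdm6a (-0.012), Kmt2d (-0.0069), Kdm1a (-0.13) and Hdac1 (-0.095). With no filter Kdm1a came to -0.0060, and with genes at a mean of 10 CPM or more Kdm1a came to -0.032 and Hdac1 to -0.016. With a library left out, log2 fold changes ran from -0.86 to 1.20 (Tet1), -0.47 to 0.45 (Tet3), -0.37 to 0.39 (Kdm6a), -0.17 to 0.57 (Kmt2a), -0.020 to 0.22 (Kmt2d), -0.20 to 0.56 (Setd2), -0.91 to 0.30 (Kdm1a) and -0.090 to 0.20 (Hdac1). The other 21 named genes kept their sign under all 12 alternatives, but 15 of them moved by over 1.5 times under at least 1, namely 13 with a library left out and 10 with the replicate block; for each sign that turned, the cause was not tested. Depth limits what an absence shows, since 3 counts equal 0.397 to 0.581 CPM.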

Other observations

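Uhrf1, the partner that brings DNMT1 to newly copied DNA, had no counts in Treg 1 and stood at 42.7, 6.49 and 37.1 CPM in the others, against 80.8 and 70.9 CPM in Teffs. All Treg libraries were below both Teffs, and the gene did not pass the test (log2 fold change -1.81 ± 1.61, edgeR unadjusted p = 0.292). Suz12, a core subunit of PRC2, was at 75.4, 30.9, 63.8 and 46.7 CPM in Tregs and 78.4 and 154 CPM in Teffs, likewise all below (log2 fold change -1.10 ± 0.59, edgeR unadjusted p = 0.0963). Both were chosen after their values were seen.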
